A study of Bos taurus with 13 samples.

Results

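Bovine mesenchymal stem cells that stayed at 40.5 °C for 3 days were compared with cells that had 6 h at 40.5 °C and were then returned to 37 °C for 66 h. The comparison rested on 5 of the 13 libraries in the series, 3 of continued heat and 2 of heat then recovery. Genes were included by a rule on level alone, a normalised value of at least 10 in at least 2 of these 5 libraries, which kept 13201 of the 16595 genes in the table. The cells were primary cultures from umbilical cord at early passages, and heating began a day after seeding. Each group was grown in the same low-glucose medium with fetal bovine serum. The labels name no donors, so it is not stated whether the libraries of a group came from separate animals, and the p-values measure the spread between these libraries.

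The 3-day heat group (n = 3) and the recovery group (n = 2) were harvested after the same 72 h, which the sample titles give as 6 h plus 66 h for recovery. The series text speaks instead of 3 days of recovery, and the titles were followed here. The other groups were kept at 37 °C for 3 days (3-day control, n = 2), at 37 °C for 6 h (6 h control, n = 3) or at 40.5 °C for 6 h (6 h heat, n = 3). They entered the comparison only through the shared estimate of the spread of each gene, and their levels are given beside it.

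Mesenchymal stem cells are adherent, fibroblast-like cells that can form bone, cartilage and fat cells in culture. A rise in temperature activates heat shock factors, which switch on genes for chaperones, the proteins that hold and refold damaged proteins, and this programme normally switches off once the stress ends. Exposure that goes on for days allows slower changes in growth, matrix production and metabolism, while cells returned to their normal temperature resume growth in culture. The deposited table lists Ensembl identifiers without gene names and no table used here pairs identifiers with names. The results are therefore given for groups of genes and for 4 identifiers, and neither heat shock genes nor the markers of mesenchymal or other cell types were checked.

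The 5 libraries held from 14859428 to 32472749 reads recovered from the deposited values. Replicate 3 of the 3-day heat group stood apart from replicates 1 and 2. Over the tested genes, the median absolute log2 difference was 0.078 between heat replicates 1 and 2, 0.184 between replicates 1 and 3, and 0.188 between replicates 2 and 3. The recovery libraries differed from each other by 0.102. Every heat library was farther than this from every recovery library, by 0.312 to 0.322 for replicates 1 and 2 and by 0.390 and 0.391 for replicate 3. Replicate 3 of both 6 h groups also stood apart, and neither the recovery nor the 3-day control group had a replicate 3. The labels give no batch. Results are therefore also given for a fit of replicates 1 and 2 of each group.

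Continued heat and recovery left the cells with different expression in more than 1 in 3 genes. In limma, a linear model fitted to log2(value + 1), 4912 of the 13201 tested genes (37.2%) had an adjusted p under 0.05. Expression was higher after 3 days of heat in 2440 genes (18.5%) and lower in 2472 (18.7%). In 4910 of the 4912, the 3 heat libraries lay entirely above or entirely below both recovery libraries, which was also true of 67.9% of all tested genes. With replicates 1 and 2 alone, 7030 genes (53.3%) passed, 3325 higher (25.2%) and 3705 lower (28.1%), and 4852 of the 4912 genes were called again in the same direction. The count fell to 2616 genes without recovery replicate 1 and to 2634 without recovery replicate 2, where the one recovery library left was assumed to vary like the other groups. Of these, 2581 and 2609 were among the 4912 with the same direction.

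Most of the differences were modest. The median absolute log2 difference of the called genes was 0.60, and 37.9% of them differed by under 0.5. On the log2 scale, 1151 genes (8.72% of those tested) differed by at least 1, which is a doubling or more. Of these, 462 (3.5%) were higher and 689 (5.22%) were lower after 3 days of heat. The excess of lower genes grew with the size of the difference, with 82 genes higher and 188 lower by at least 2, and 12 higher and 57 lower by at least 3. Replicates 1 and 2 alone gave 1228 genes (9.3%) that differed by at least 1, 450 higher and 778 lower. Without recovery replicate 1, 372 genes were higher and 446 lower by at least 1, and without recovery replicate 2 the counts were 337 and 462. At a difference of at least 3, replicates 1 and 2 gave 13 higher and 67 lower. The balance depended partly on scaling. With quantile normalization 572 genes were higher and 656 lower by at least 1, against 476 and 670 with TMM scaling and 463 and 682 with upper quartile scaling.

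**Figure D1:**
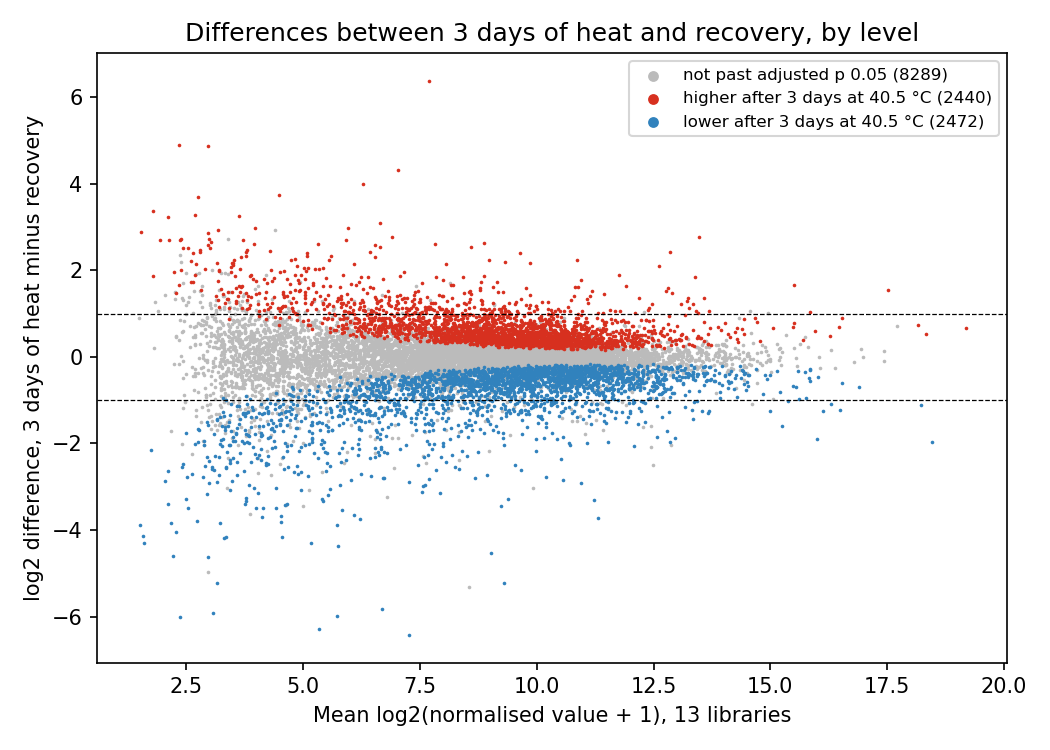
Each point is 1 of 13201 tested genes, with its mean log2(normalised value + 1) over the 13 libraries on the x axis and its log2 difference, 3 days of heat minus recovery, on the y axis. Red marks the 2440 genes higher and blue the 2472 genes lower after 3 days of heat at a limma adjusted p of 0.05, and the dashed lines mark a difference of 1. The widest differences lie at low to middle levels, and more blue than red points lie far from 0, with 57 lower and 12 higher by at least 3.

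The direction of the difference varied with how strongly a gene was expressed. Among 753 genes with a mean value of at least 5000 over the 13 libraries, 120 were higher (15.9%) and 221 lower (29.3%) after 3 days of heat. Among the 4891 genes with values from 200 to 1000 the order was the other way, with 1034 higher (21.1%) and 824 lower (16.8%). At values under 50, 181 of 1882 genes were higher and 265 lower. Replicates 1 and 2 alone gave 184 and 313 for the most abundant class, 1388 and 1255 for the middle class, and 233 and 391 for the lowest class. Under quantile normalization the most abundant class had 142 higher and 161 lower genes, and in the lowest class the order turned, with 268 higher and 246 lower. Detection also varied with level. In the lowest class the median residual SD (log2 scale) was 0.45 and 23.7% of genes were called, against 0.12 and 45.3% in the highest.

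The 100 most abundant genes of the series were all tested. After 3 days of heat, 17 were higher and 31 lower than after recovery, against 18.5% and 18.7% of all tested genes. In replicates 1 and 2 alone 28 were higher and 40 lower, against 25.2% and 28.1% of all tested genes. Without recovery replicate 1 the counts were 7 and 18, and without recovery replicate 2 they were 8 and 17. A small number of genes took more of the total in the heated cells. The 10 most abundant genes of each library held 15.2%, 15.1% and 13.7% of the summed signal in heat replicates 1 to 3, and 12.6% in each of the recovery libraries. The mean was 14.7% ± 0.83 (SD, n = 3) with heat and 12.6% ± 0.0048 (SD, n = 2) after recovery, against 12.5% ± 0.24 (SD, n = 2) in the 3-day control. All 3 heat libraries lay above both recovery libraries, and the exact permutation test, made two-sided by doubling the smaller one-sided p, gave 0.2, the smallest value that form of the test allows for 3 against 2 libraries. The single most abundant gene of the table, singled out after its values were seen, held 4.13%, 4.04% and 3.37% of the signal in the heat libraries and 2.32% and 2.49% in the recovery libraries. It was higher by 0.66 on the log2 scale (SE 0.19, limma adjusted p 0.0173), and by 0.76 in replicates 1 and 2.

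To locate the difference, the 3-day control was placed on the line between the groups compared. Its libraries were not part of the contrast. In 4016 of the 4912 called genes (81.8%) both 3-day control libraries lay nearer to the recovery mean than to the 3-day heat mean. In 292 (5.94%) both lay nearer to the 3-day heat mean, and in 604 the control libraries fell on different sides. Over all tested genes these shares were 61.9% on the recovery side and 15.1% on the heat side. For the genes called in replicates 1 and 2 alone they were 77.2% and 8.01%. On a scale where the recovery mean is 0 and the 3-day heat mean is 1, the median position of the control was 0.014 over the called genes, with the middle of the distribution between -0.20 and 0.23 (25th and 75th percentiles). The control mean lay beyond the 3-day heat mean in 1.89% of the called genes.

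Of the 292 genes whose control libraries lay on the heat side, 201 were lower and 91 higher after 3 days of heat than after recovery. They made up 8.13% of the genes called lower and 3.73% of those called higher, and 9.85% and 5.95% in replicates 1 and 2 alone, all below the 15.1% over all tested genes. Whether recovery differed from the control in these genes was not tested as a set.

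**Figure D2:**
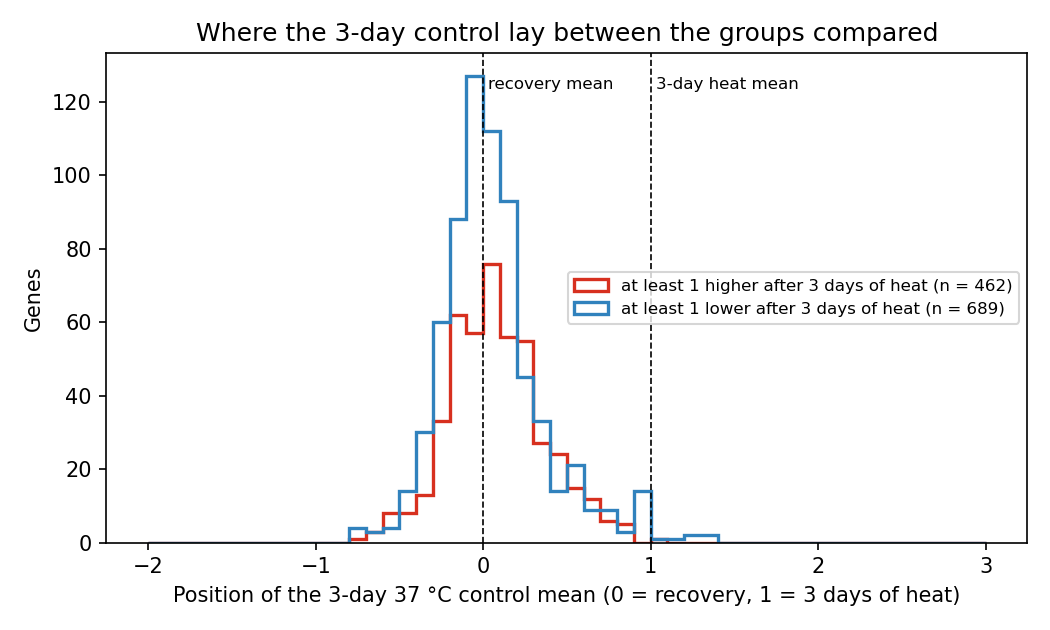
The x axis places the mean of the 3-day 37 °C control of each gene on a scale from the recovery mean (0) to the 3-day heat mean (1), and the y axis counts genes in bins of that scale. Red shows the 462 genes at least 1 higher and blue the 689 genes at least 1 lower after 3 days of heat, and both distributions peak near 0, at the recovery level.

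The comparisons with the 3-day control share libraries with this one, so their values are set side by side without counting overlaps. Against the 3-day control, 5475 genes (41.5%) passed after 3 days of heat and 108 (0.818%) after recovery. The latter count also tests where the comparison of continued heat with recovery differs from that of continued heat with the control. With replicates 1 and 2 alone the counts were 7443 (56.4%) and 1804 (13.7%). A gene that missed the threshold is not shown to have been at the control level. The recovery count was 50, 55 and 124 without heat replicates 1, 2 and 3, which enter it only through the shared estimate of the spread. It was far below 108 when either recovery library was left out, which leaves 1 recovery library. It was 39 with only the 3-day groups, 312 with DESeq2 on recovered reads and 797 with a term for replicate 3. This count compares 2 with 2 libraries, and the count for continued heat compares 3 with 2. Over the 462 genes at least 1 higher after continued heat than after recovery, the median log2 difference from the control was 1.27 for continued heat and -0.089 for recovery. Over the 689 genes at least 1 lower, it was -1.49 for continued heat and 0.020 for recovery.

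Followed through the 13 libraries, the large differences had distinct shapes in each direction. Values were centred on each gene's mean. For the 462 genes at least 1 higher, the median over genes was between 0.74 and 1.02 in the 3-day heat libraries and between 0.12 and 0.32 in the 6 h heat libraries. It was between -0.59 and -0.38 in the recovery and 3-day control libraries, and between -0.43 and -0.39 in the 6 h control. For the 689 genes at least 1 lower, the median was between -0.90 and -0.62 in the 3-day heat libraries and between -0.46 and -0.29 in the 6 h heat libraries. It was between 0.72 and 0.86 in the recovery and 3-day control libraries, but only between 0.033 and 0.20 in the 6 h control. Heat replicate 3 had the most extreme median of the heat libraries in both sets. The direction in the 3-day heat and recovery libraries follows from how these sets were chosen. The centred levels of the other 8 libraries are fixed in part, since each gene's values sum to 0 over the 13 libraries, but their order among themselves is not.

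**Figure D3:**
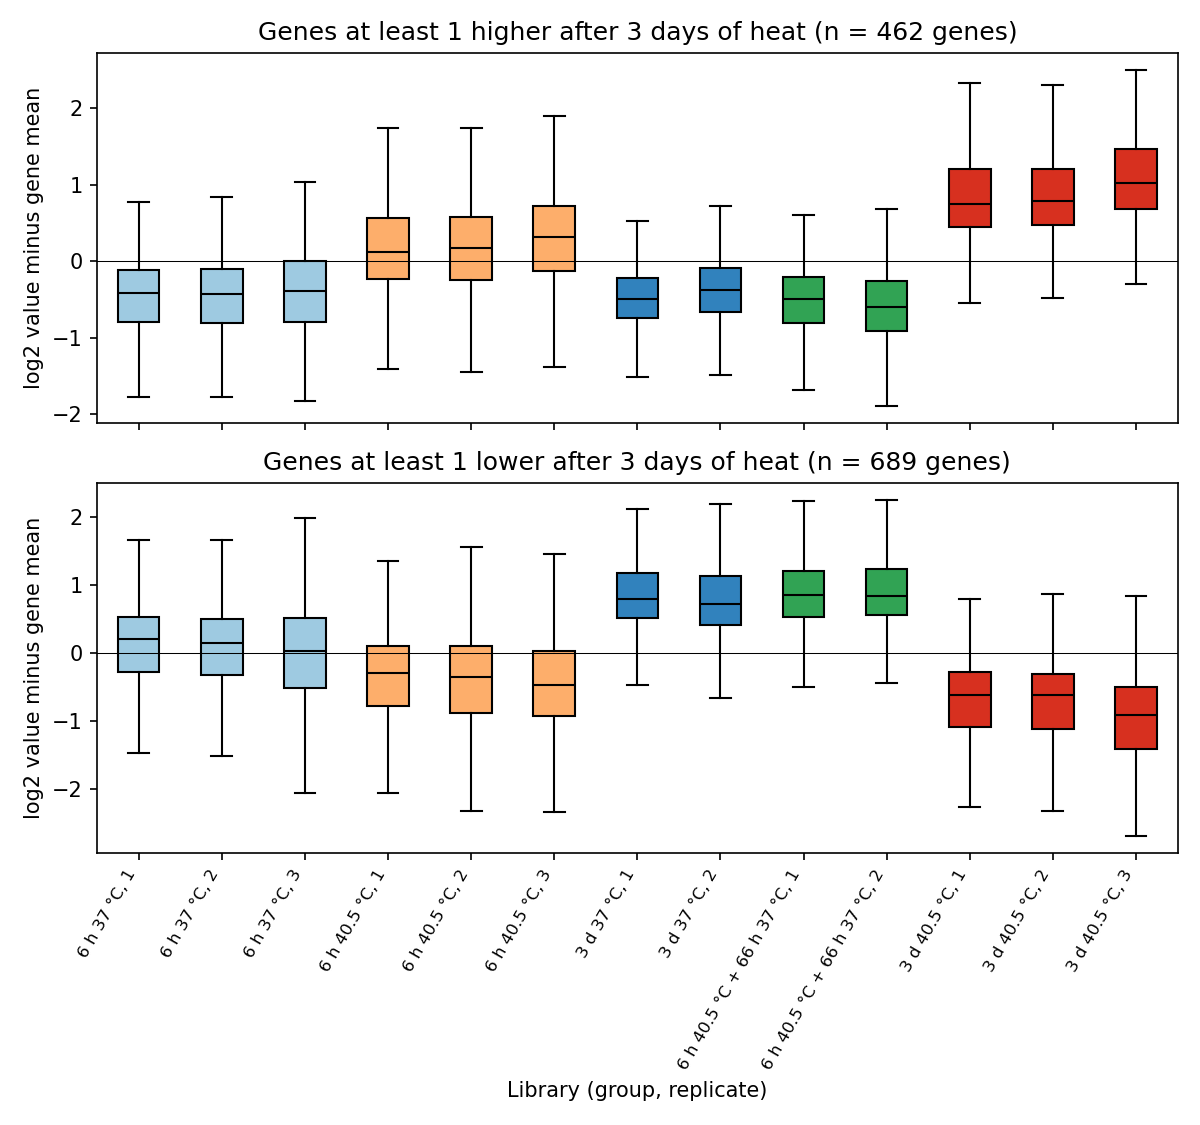
Boxes show, for each of the 13 libraries on the x axis, the median and quartiles over genes of the log2 value minus the gene's mean over all libraries, with whiskers to 1.5 times the interquartile range and points beyond them not drawn. The upper panel holds the 462 genes at least 1 higher and the lower panel the 689 genes at least 1 lower after 3 days of heat. The 3-day control boxes lie beside the recovery boxes in both panels.

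The 6 h comparison, heat against the 6 h control, shares no library with this one, although each gene's spread was estimated jointly. It shows how many of the genes that separate continued heat from recovery had passed the threshold within hours. Of the 2440 genes higher after 3 days of heat than after recovery, 1022 (41.9%) were also raised at 6 h, against 15.2% of all tested genes, and 99 (4.06%) were lowered. Of the 2472 genes lower after 3 days of heat, 993 (40.2%) were also lowered at 6 h, against 17.2% of all tested genes, and 108 (4.37%) were raised. The 1022 genes were 50.9% of those raised at 6 h and the 993 were 43.8% of those lowered. In replicates 1 and 2 alone the shared shares were 45.9% of the higher genes (21.3% of all tested genes were raised at 6 h) and 48.7% of the lower genes (24.7% were lowered). Over both directions, 2015 genes were called in both comparisons with the same sign and 207 with opposite signs. These counts were 1228 and 99 without recovery replicate 1, 1189 and 109 without recovery replicate 2, and 3330 and 540 in replicates 1 and 2 alone.

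Among the genes that differed by at least 1, the shares were less alike in the full fit. Of the 462 genes at least 1 higher after 3 days of heat, 192 (41.6%) had been raised at 6 h, against 15.2% of all tested genes. Over all 462 the median log2 difference at 6 h was 0.56, compared with 1.34 between continued heat and recovery. Of the 689 genes at least 1 lower, 185 (26.9%) had been lowered at 6 h, against 17.2% of all tested genes. Over all 689 the medians were -0.44 at 6 h and -1.48 between continued heat and recovery. The shares for replicates 1 and 2 alone were 49.1% of 450 genes and 41.6% of 778, against 21.3% and 24.7% of all tested genes. At a difference of at least 2 the full fit gave 29.3% of 82 higher and 17.0% of 188 lower genes. In replicates 1 and 2 alone the order turned, with 34.2% of 76 and 36.0% of 203. The difference between continued heat and recovery was itself unlike that at 6 h in 1861 genes (14.1%) by an interaction contrast in limma, and in 4289 (32.5%) in replicates 1 and 2 alone.

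The change with time at 37 °C, the 3-day against the 6 h control, is a second comparison without shared libraries. It measures what the culture does without heat. The 3-day heat group and the 6 h control have a replicate 3, and the recovery group and the 3-day control have none. Any offset shared by the replicate 3 libraries therefore enters these comparisons with opposite signs. The rule on level can admit a gene through the recovery libraries alone, while a gene expressed only in the 6 h groups could not enter. Of 156 genes under 10 in the 3 heat libraries and at least 10 in both recovery libraries, 120 were called lower. The reverse held for 96 genes, 65 of them called higher. How many of these genes rose with time was not counted. Of the 689 genes at least 1 lower after continued heat, 234 (34%) rose between 6 h and 3 days at 37 °C, against 12.1% of all tested genes, and 14 (2.03%) fell, against 14.2% of all tested genes. The share that rose was 42.6% of the 188 genes lower by at least 2, and 50.9% of the 57 lower by at least 3. With replicates 1 and 2 alone it was 55.8% of 778, 76.8% of 203 and 89.6% of 67 genes, where 22.4% of all tested genes rose and 22.3% fell. The 462 genes at least 1 higher showed no such lean, with 55 (11.9%) that rose and 54 (11.7%) that fell with time, and 22.2% and 17.3% of 450 in replicates 1 and 2. All 2440 genes called higher did lean, toward a fall, with 531 (21.8%) that fell and 197 (8.07%) that rose. In replicates 1 and 2 alone, 29.4% of the 3325 higher genes fell and 17.8% rose. Of the 2472 genes called lower, 591 (23.9%) rose and 240 (9.71%) fell, again against 12.1% and 14.2% of all tested genes. Over all called genes, 437 had the same sign in both comparisons and 1122 the opposite sign, against 508 and 974 without heat replicate 3. These counts were 210 and 581 without recovery replicate 1, 208 and 603 without recovery replicate 2, and 1324 and 2319 in replicates 1 and 2 alone.

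For the 234 genes that rose with time at 37 °C and were at least 1 lower after continued heat, levels were read against the 6 h control. The median log2 difference from it was 1.37 in the 3-day control, 1.45 in the recovery group and -0.17 in the 3-day heat group. The median in the heated cells was near the 6 h control and that of the recovery group near the 3-day control. The direction of these medians follows in part from how the genes were chosen. The other 455 genes at least 1 lower had medians of 0.34 in the 3-day control, 0.42 after recovery and -1.12 after 3 days of heat, below the 6 h control. The 192 genes that were raised at 6 h and were at least 1 higher after continued heat had medians of 1.06 at 6 h of heat, 1.38 after 3 days of heat and -0.016 after recovery. For the 455 and the 192 genes, too, the direction follows in part from how they were chosen.

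**Figure D4:**
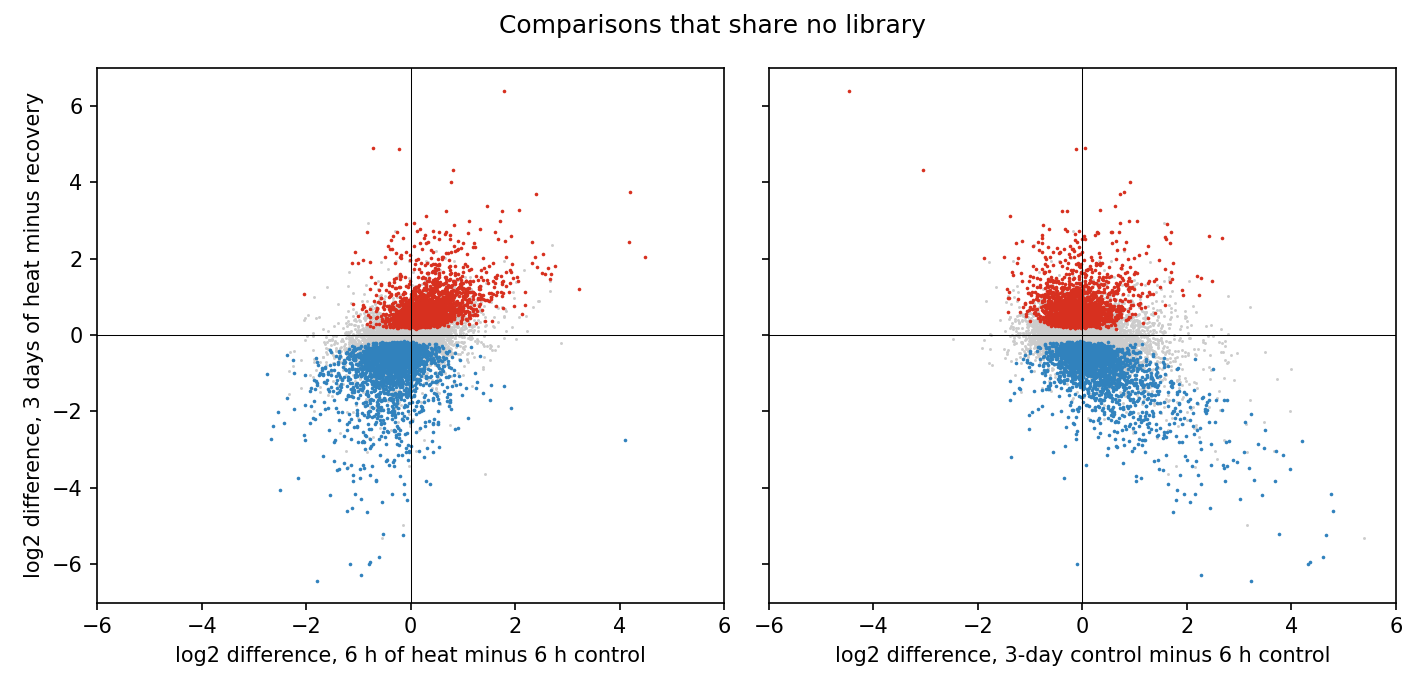
Each point is a tested gene, with its log2 difference between 3 days of heat and recovery on the y axis and, on the x axis, its log2 difference for 6 h of heat against the 6 h control (left) or for the 3-day against the 6 h control (right). Red and blue mark the genes called higher (2440) and lower (2472) after 3 days of heat and grey the rest. On the right the most strongly lowered genes extend toward a rise with time at 37 °C.

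The agreement of single libraries was described by differences that share no library. The difference of heat replicate 1 from recovery replicate 1 and that of heat replicate 2 from recovery replicate 2 correlated across 13201 genes with Pearson's r of 0.862 and Spearman's rho of 0.841. Their signs matched in 85.4% of genes. With the recovery libraries exchanged r was 0.852. The pairs that included heat replicate 3 gave r from 0.748 to 0.761 and matching signs in 79.4% to 80.3% of genes. Genes are not independent replicates, and the values share the scaling of the table, so no p is given.

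By the naming rule, 4 identifiers are described, the 2 with the largest rise and the 2 with the largest fall. They were taken from genes past the threshold in both fits, with groups that did not overlap and a mean of at least 100 in the higher group. The lack of overlap and the low adjusted p in both fits were thus conditions of the choice. Before the limit to the largest differences, 2187 genes with higher and 2130 with lower values met these conditions. The table gives no names, so what these genes encode is not stated.

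ENSBTAG00000020060 was nearly silent after recovery and strongly expressed under continued heat. Its normalised values were 948, 634 and 1756 in heat replicates 1 to 3, and 7.53 and 16.5 in recovery replicates 1 and 2. All heat libraries were far above both recovery libraries, which were close to the 3-day control at 11.3 and 15.4. The log2 difference was 6.38 (SE 0.77, limma adjusted p 0.00018), and in replicates 1 and 2 it was 5.99 (limma adjusted p 3.89e-09). Summed over libraries and corrected for size factors, 3046 reads with heat against 20 after recovery gave a ratio of 104, with an exact 95% interval of 67.0 to 170 that covers counting error only. At 6 h its values were 830, 1037 and 1496 with heat and 153, 160 and 1248 at 37 °C. Replicate 3 of the 6 h control was thus as high as the heated libraries, and the 6 h difference of 1.79 did not pass the threshold (SE 0.69, limma adjusted p 0.0684). With replicates 1 and 2 only it was 2.56 (limma adjusted p 1.24e-05).

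ENSBTAG00000018252 had values of 515, 389 and 723 in the heat libraries and 25.6 and 24.8 in the recovery libraries. The groups did not overlap, and the 3-day control was as low as recovery, at 20.0 and 16.7. The log2 difference was 4.33 (SE 0.65, limma adjusted p 0.000561), and 4.10 in replicates 1 and 2 (limma adjusted p 1.91e-09). The read ratio was 21.0, with an exact 95% interval of 15.8 to 28.6 from counting error. The 6 h heat libraries had 255, 291 and 292, and the 6 h control had 86.7, 80.1 and 570. From the 6 h to the 3-day control the log2 difference was -3.05 (SE 0.65, limma adjusted p 0.00687). For ENSBTAG00000020060 it was -4.47 (SE 0.77, limma adjusted p 0.00281). With replicates 1 and 2 only, which leaves out the high replicate 3 of the 6 h control, these differences were -2.13 (limma adjusted p 8.75e-07) and -3.48 (limma adjusted p 7.99e-07).

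ENSBTAG00000027513 showed the opposite pattern, with 17.3, 9.99 and 30.6 in the heat libraries and 1721 and 1464 in the recovery libraries. The 3-day control had 1850 and 1431, on either side of the recovery values. The log2 difference was -6.42 (SE 1.55, limma adjusted p 0.00794), and -6.81 in replicates 1 and 2 (limma adjusted p 4.16e-10). Its 6 h values were 59.6, 38.4 and 2192 at 37 °C and 21.5, 16.4 and 323 with heat, so that replicate 3 again stood far above the others. Without recovery replicate 1 the limma adjusted p was 0.0552 and the difference -6.31. The recovery libraries held 88.0 times as much as the heat libraries by reads (exact 95% interval 67.1 to 118, counting error only).

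ENSBTAG00000019716 was close to the limit of detection under continued heat. Its values were 2.59, 2.22 and 3.82 in the heat libraries, from 3, 2 and 3 reads, against 334 and 262 after recovery. The groups did not overlap, and the 3-day control had 264 and 233. The log2 difference was -6.28 (SE 1.47, limma adjusted p 0.00687), and -6.45 in replicates 1 and 2 (limma adjusted p 4.04e-10). Without recovery replicate 1 it was -6.11, with a limma adjusted p of 0.052. By reads, recovery held 111 times as much as heat, with an exact 95% interval of 55.9 to 258 from counting error. At 6 h the values were 13.2, 15.5 and 583 at 37 °C and 9.41, 10.1 and 165 with heat. Replicate 3 was the high library in both 6 h groups for this gene as well.

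**Figure D5:**
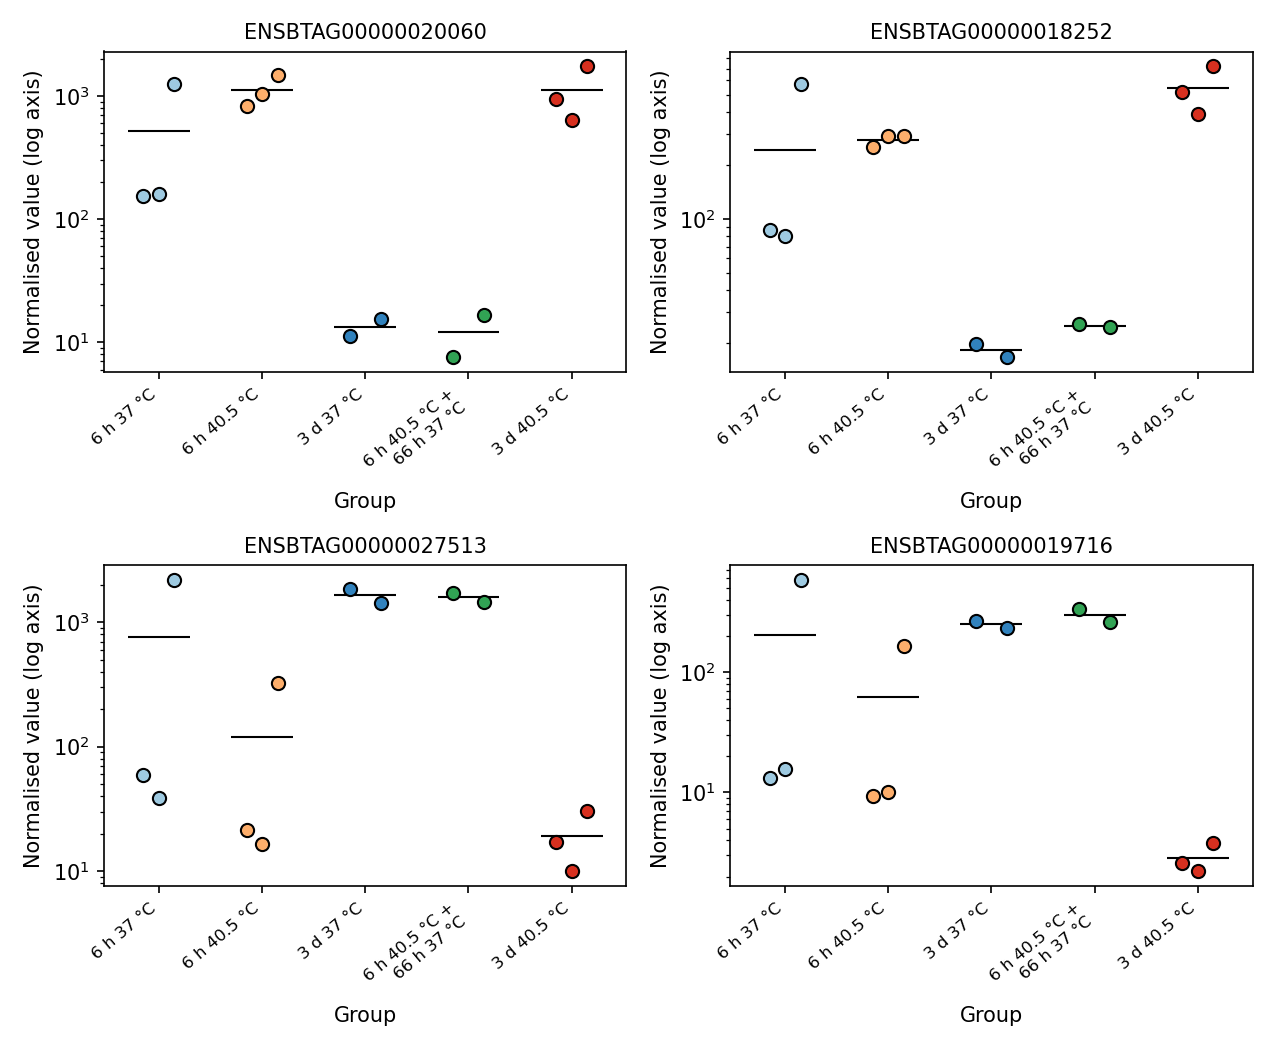
Points are the normalised values (log axis) of the 4 identifiers in the 13 libraries, grouped on the x axis by treatment, with a line at each group mean. In each panel the recovery and 3-day control points lie together and apart from the 3-day heat points, and 1 of the 3 points of the 6 h control, replicate 3, lies well above the other 2.

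At the lower end of the table, 96 genes were under 10 in both recovery libraries and at least 10 in all 3 heat libraries. The reverse held for 156 genes. Both sets were chosen by their values in the groups compared, so the counts are a description. The rule on level put 157 genes just inside, with a second highest value from 10 to 12, and 278 just outside, from 8 to 10. Their median mean values were 8.69 and 7.33, against 520 for all tested genes.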

How the data were processed

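Polyadenylated RNA of 13 bovine cultures had been sequenced. The authors deposited 1 table of normalised signal. The submitters' processing notes list cutadapt, STAR, HTSeq, DESeq and the build ARS-UCD1.2, and the table's file name also points to DESeq scaling. Strand setting, versions and annotation release are not given in the sources used here, so overlapping and near-identical genes cannot be separated. The low values were whole multiples of 1 step per library, and 100% of values were whole reads within 0.01. Recomputed size factors equalled those implied by the values. Each gene had at least 6 reads over the 13 libraries.

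Values were taken as log2(value + 1), which understates changes of low genes, and fitted in limma 3.58.1 (R 4.3.3) with 5 group means over the 13 libraries, empirical Bayes moderation with a trend in the variance, leaving 8 residual degrees of freedom. P-values were two-sided with Benjamini-Hochberg adjustment over 13201 genes, and the threshold was 0.05. Groups came from the sample titles. On recovered reads, edgeR 4.0.16 called 4919 and DESeq2 1.42.0 called 5090 genes. The procedure was tested on simulated data. Identifiers were named when past the threshold in both the full fit and that of replicates 1 and 2, with groups that did not overlap and a mean of at least 100 in the higher group, the 2 largest differences in each direction. The comparison, groupings and naming rule were chosen with earlier results of these data known. Gene lists and promoter motifs had been planned and were not used, because the files do not pair identifiers with names. Alternatives were other pseudocounts, filters, scalings, variance models, samples, tests, depths and thresholds, and single libraries left out.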

Additional observations from a re-analysis of the deposited data

Results flagged for a closer look

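The difference between 3 days of heat and recovery was itself unlike the effect of 6 h of heat in 1861 genes. The test was an interaction contrast in the same limma model (adjusted p of 0.05), and it covers differences of time in culture as well as of exposure. Of these genes, 841 were called between continued heat and recovery and not at 6 h, 409 of them higher and 432 lower. A further 574 were called only at 6 h, 196 in both with the same sign, and 207 in both with opposite signs, of which 99 were higher after continued heat and lowered at 6 h, and 108 were lower after continued heat and raised at 6 h. The 3-day difference was the larger in 1087, and the median absolute gap between the effects was 0.74 on the log2 scale. The count was 4289 in replicates 1 and 2 alone, 644 without recovery replicate 1 and 808 without recovery replicate 2.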

How the results depend on the processing

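At the same threshold, the number of genes that differed between 3 days of heat and recovery lay between 4416 and 7030 over 16 alternatives, all within 1.5 times of 4912. The genes higher numbered 2147 to 3325 and the genes lower 2221 to 3705. The labels link samples only by a replicate number. Deviations of same-numbered heat and recovery libraries correlated with r of 0.030 and 0.016. With 2 recovery libraries the exchanged pairs give the same values with opposite sign, and recovery has no replicate 3. These correlations therefore cannot show whether same-numbered libraries belong together. The median residual SD (log2 scale) was 0.16 in the full fit and 0.12 with a replicate block. With the replicate block 6374 genes passed, and with only the 5 libraries compared 5532 did. At an adjusted p of 0.01 there were 2739 genes, 1353 higher and 1386 lower. The count differing by at least 1 was 755 when the mean value had to reach 50, where 11330 genes were tested, and 755 to 1392 over the 16 alternatives. Leaving out single libraries gave 2616 to 4182 genes, 1317 to 2067 higher, 1299 to 2120 lower, and 799 to 1114 differing by at least 1. With reads thinned to 14859428 per library 4416 genes passed, fewer than at the full depth. The 4 identifiers kept their direction in all 86 alternative values and their side of the threshold in 84; the exceptions were the fallen genes without recovery replicate 1. DESeq2 gave no adjusted p for those genes. The 4 identifiers had been chosen for large differences past the threshold in the full fit and in replicates 1 and 2. Their kept direction follows in part from that choice. Alternatives for gene lists were not run.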
